A study of Caenorhabditis elegans with 12 samples.

Results

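The *ttr* genes of *Caenorhabditis elegans* encode the transthyretin-related family of small proteins, and 52 of the 12749 genes with an expression value have a name that starts with *ttr-*. The members were chosen by name alone, and all 52 have a value in each of the 3 tables used. In the annotation (Ensembl release 115, WBcel235, which is the same assembly as ce11) the family has 59 genes, of which 58 are protein-coding and 1, *ttr-4*, is a pseudogene. The other 7 genes (*ttr-11*, *ttr-13*, *ttr-19*, *ttr-52*, *ttr-55*, *ttr-57* and *ttr-58*) have no expression value here and enter only the counts of position and gene structure.

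The values come from RNA-seq of whole day 1 adult worms grown on OP50 bacteria. The 4 groups, of 3 independent biological repeats each, were wild type (Bristol N2) at 25 °C, wild type at 15 °C, *mdt-15(tm2182)* mutants at 25 °C and *mdt-15(tm2182)* mutants at 15 °C. The Mediator complex, to which MDT-15 belongs, couples transcription factors to RNA polymerase, and the mutants carry the *tm2182* allele in every cell. The values used are 1 mean per gene, made by the authors over the libraries, and were equal in the 3 tables to within 0.0003 on the log2 scale. They are thus taken as means over all 12 libraries, in which both genotypes and both temperatures have the same weight. They carry no standard deviation, and library depths are unknown. How the *ttr* genes differ between temperatures or between genotypes was not analysed, because the remaining values in the tables are the authors' own comparisons.

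Transthyretin in vertebrates is a blood protein that carries thyroid hormone and, together with retinol-binding protein, vitamin A. Nematodes have a large family of proteins with a related domain, most of them predicted to be secreted. Functions are known for few members. TTR-52 is a secreted protein that binds phosphatidylserine on dying cells and links it to the phagocyte receptor CED-1. TTR-11 recognises phosphatidylserine on injured axons, and TTR-33 protects dopaminergic neurons against oxidative stress.

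The family was more abundant than the typical gene of these worms, and spread over a wide range. Levels of different genes are compared here per length, as the mean log2 CPM, the read count scaled to the library total, minus the log2 of the exon length of the longest transcript in kb. On this scale the median of the 52 *ttr* genes was 4.65, and the median of the 12712 genes with an annotated length was 2.49, a difference of 2.16. Without regard to length the medians were 4.07 and 2.85, and the difference was smaller, at 1.22. Of the 52 genes, 41 (78.8%) lay above the median of all genes and 26 (50%) above the upper quartile of all genes, which was 4.62. Below the lower quartile of all genes, which was 0.63, lay 3 members. Division by length raises short genes such as these. Without regard to length, 6 members had a mean log2 CPM below 0, as did 12.4% of all genes. The lowest and the highest member differed by 10.59 on the log2 scale, or 1547-fold. The spread within the family was as wide as that of all genes, with 3.93 between the lower and upper quartiles of the *ttr* genes and 3.996 between those of all genes. Genes are not replicates, and no test was made of the difference between the family and all genes.

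**Figure D1:**
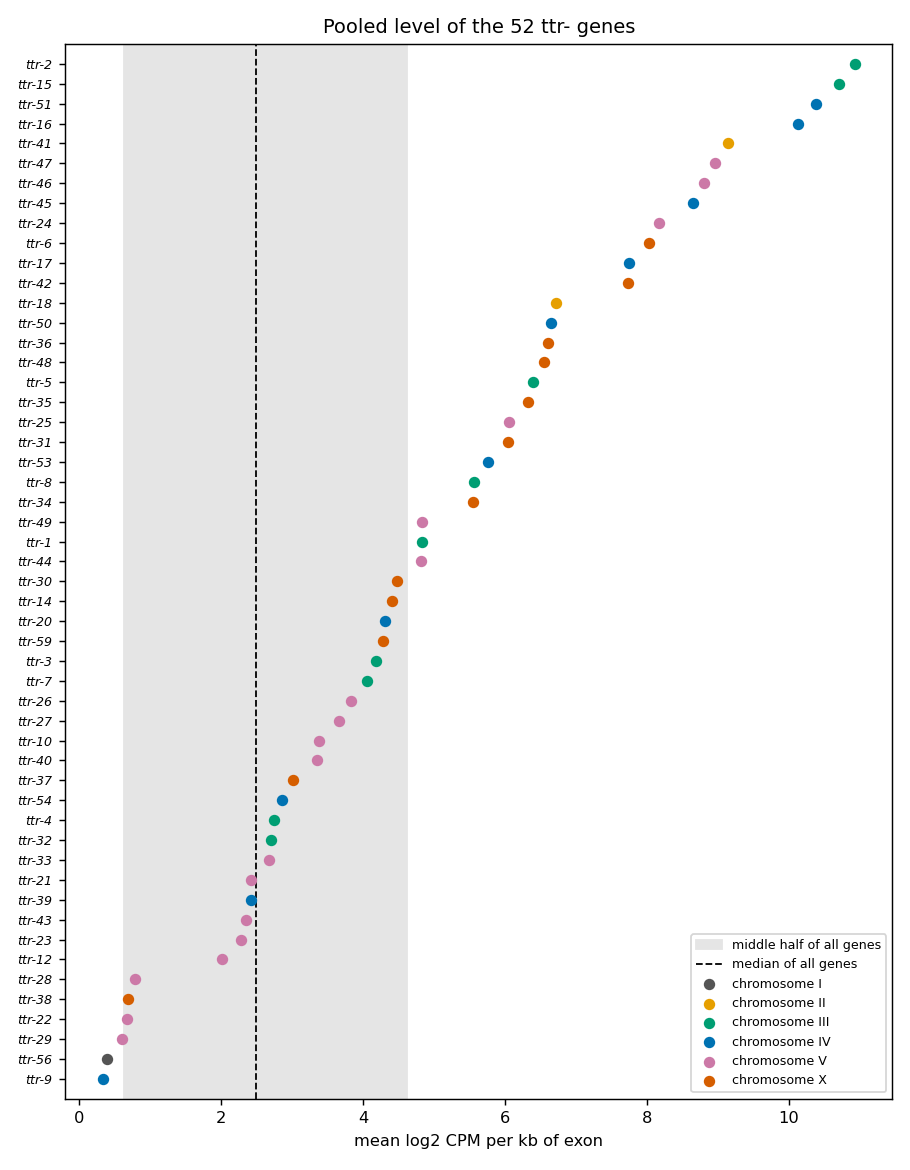
Mean log2 CPM per kb of exon (x axis) of each of the 52 *ttr* genes (y axis, ordered by level), with 1 point per gene for the authors' mean over the libraries and no error bar, since none is given. Colours mark the chromosome, the grey band runs from the lower (0.63) to the upper (4.62) quartile of all genes and the dashed line is their median (2.49). The points run from 0.33 for *ttr-9* to 10.93 for *ttr-2*, with a gap between the 6 lowest genes and the others.

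The most abundant members were *ttr-2* and *ttr-15*, whose levels lie among the highest 1% of all genes. The gene *ttr-2* (WBGene00010539, chromosome III, 9927769 to 9929004, plus strand) had a level of 10.93 log2 CPM per kb, and 115 of all genes were higher. The gene *ttr-15* (WBGene00011561, chromosome III, 10337847 to 10339440, plus strand) followed at 10.71, with 125 genes higher. Without regard to length their order was exchanged, with a mean log2 CPM of 9.99 for *ttr-15* and 9.92 for *ttr-2*. These values correspond to 1018 CPM and 966 CPM. Next in level per length were *ttr-51* (chromosome IV, 13250655 to 13252311, minus strand) at 10.38 and *ttr-16* (chromosome IV, 11063530 to 11064137, minus strand) at 10.12. The remaining 6 of the 10 most abundant members were *ttr-41* on chromosome II at 9.14, *ttr-47* and *ttr-46* on chromosome V at 8.95 and 8.80, *ttr-45* on chromosome IV at 8.65, *ttr-24* on chromosome V at 8.17 and *ttr-6* on the X chromosome at 8.03. No role of these genes is given here.

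A few genes made up most of the summed CPM of the family, without regard to length. With each mean log2 CPM turned back into CPM, which gives a geometric mean over the libraries, the 52 genes summed to 5534. This is 0.598% of the same sum over all genes, which was 924877, from 0.408% of the genes. Such shares are thus not exact shares of the reads. Ranked by CPM, without regard to length, *ttr-15* and *ttr-2* held 35.8% of this family total, the first 5 members 63.2% and the first 10 members 83.5%. The 26 members lowest in CPM together held 2.63%. Equal shares over all genes are not given here, so these shares cannot be set against them. Per length, the spread within the family was as wide as that of all genes, as stated above. The shares thus describe the family and do not set it apart from other genes.

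The 6 lowest members lay below the widest gap in the order of levels. Their levels per length were 0.33 for *ttr-9* (chromosome IV, 9505543 to 9506351, minus strand), 0.39 for *ttr-56* (chromosome I, 6146461 to 6147102, plus strand), 0.60 for *ttr-29*, 0.67 for *ttr-22*, 0.68 for *ttr-38* and 0.78 for *ttr-28*. The next gene, *ttr-12*, lay at 2.01, and this gap of 1.23 is the largest between consecutive members. The second largest gap was 1.01, and with no error for any mean this split is a description only. The same 6 genes are the members whose mean log2 CPM was below 0, that is under 1 CPM. Such means were found in 1575 of the 12749 genes (12.4%). The authors excluded genes with a CPM under 1, and no source used here says in how many libraries. A mean under 1 CPM can thus come from a gene that is above it in some libraries.

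Between these extremes, *ttr-12*, *ttr-23*, *ttr-43*, *ttr-39* and *ttr-21* lay between 2.01 and 2.42, just below the median of all genes. The gene *ttr-33* (WBGene00016505, chromosome V, 7837093 to 7837909, minus strand), the member with the role in dopaminergic neurons, lay just above it at 2.67, and 6076 genes were higher. From *ttr-32* at 2.70 to *ttr-30* at 4.48, 14 members lay between *ttr-33* and the upper quartile. Above that quartile and below the 10 most abundant, 16 members ran from *ttr-44* at 4.82 to *ttr-17* at 7.75. With no error for any of these means, neighbours in this order cannot be said to differ.

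The family lies on all 6 chromosomes, with 22 of the 59 genes on chromosome V, 12 on the X chromosome, 10 each on chromosomes III and IV, 3 on chromosome I and 2 on chromosome II. Among the genes with a value, the median level per length was 7.93 for the 2 on chromosome II, 6.21 for the 10 on chromosome IV, 5.79 for the 12 on the X chromosome, 4.82 for the 9 on chromosome III and 3.37 for the 18 on chromosome V. The only one on chromosome I was *ttr-56* at 0.39. The X chromosome had the lowest median of all genes, 1.42 over 1615 genes, and 7 of its 12 *ttr* genes were above the upper quartile of all genes. Chromosome V, which holds more of the family than any other chromosome, had 6 of its 18 *ttr* genes there, and the median of its 2418 genes was 2.25. On the other chromosomes the median of all genes was 2.97 for I, 2.58 for II, 3.09 for III and 2.61 for IV.

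Many *ttr* genes lie next to another one. With a distance of at most 20 kb between genes, 30 of the 59 had a neighbour of the family, in 12 neighbourhoods of 2 to 4 genes, and 18 had one within 1 kb. In 10 neighbourhoods at least 2 genes had a value. Between the highest and the lowest gene of a neighbourhood the median difference was 2.62 on the log2 scale, and 6 of the 10 differed by more than 2. Over all 52 members the lower and upper quartiles lay 3.93 apart. Whether neighbours differ more or less than other members was not tested. Members with and without a neighbour had almost the same median level, at 4.65 and 4.61 for 26 genes each.

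The neighbourhood with most genes is on chromosome III, 9916190 to 9930413, and holds *ttr-4*, *ttr-3*, *ttr-2* and *ttr-1*. It also has the widest range of levels. The genes *ttr-2* and *ttr-1* lie 73 bases apart on the same strand, at 10.93 and 4.82 log2 CPM per kb. On their other side, *ttr-3* lies on the opposite strand, 1019 bases from *ttr-2*, at 4.18. The pseudogene *ttr-4* was lowest at 2.75, and between it and *ttr-2* the difference was 8.18 on the log2 scale, or 289-fold. All 364 exon bases of *ttr-4* also belong to *cbp-3* on the opposite strand, which had 2.52 log2 CPM per kb, and no source used here says whether the counting used strand. Without strand, reads of *ttr-4* and *cbp-3* cannot be told apart.

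On chromosome V, *ttr-24*, *ttr-25* and *ttr-26* (18555387 to 18560288) stepped from 8.17 to 6.06 and 3.82 in their chromosomal order. The genes *ttr-24* and *ttr-25* lie 71 bases apart on opposite strands. Also on chromosome V, *ttr-27* had a level of 3.67, whereas its neighbours *ttr-28* and *ttr-29*, on the same strand (12903550 to 12906832), were among the 6 lowest members. Other pairs of neighbours differed by 2.90 (*ttr-53* and *ttr-54*), 2.87 (*ttr-8* and *ttr-32*), 2.37 (*ttr-16* and *ttr-17*), 1.73 (*ttr-51* and *ttr-45*) and 1.48 (*ttr-49* and *ttr-40*). In 2 pairs the genes were close in level, and both are on the X chromosome. These were *ttr-36* at 6.60 and *ttr-35* at 6.33, which lie 90 bases apart, and *ttr-30* at 4.48 and *ttr-59* at 4.28, which lie 280 bases apart. The sequences of neighbours were not compared, so it is unknown whether their reads can be told apart.

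**Figure D2:**
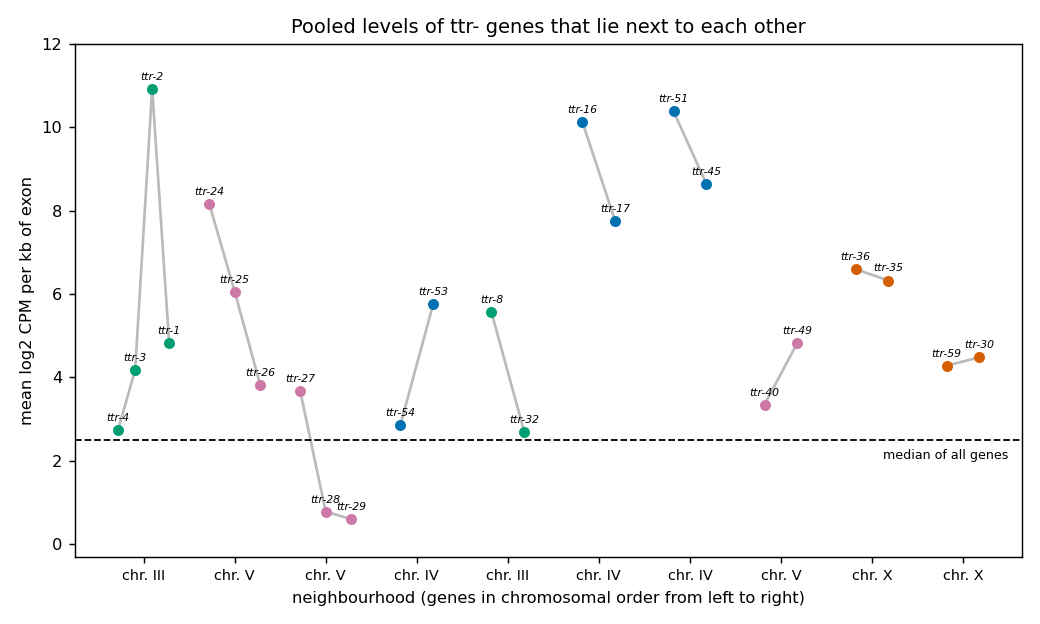
Mean log2 CPM per kb of exon (y axis) of the *ttr* genes in the 10 neighbourhoods in which at least 2 genes have a value. Each point is the authors' mean for 1 gene over the libraries, genes of 1 neighbourhood are joined by a line in chromosomal order (x axis, not to scale), colours mark the chromosome and the dashed line is the median of all genes (2.49). The steepest step is from *ttr-2* at 10.93 to its neighbours on chromosome III, and the 2 pairs on the X chromosome are nearly level.

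The *ttr* genes are short and alike in structure. The 58 protein-coding members encode proteins with a median of 143 residues by their coding length, against 329 over all protein-coding genes of the annotation, and 46 of them have between 130 and 160 residues. The longest is TTR-14 with 406 residues and the next has 213. The shortest coding length is that of *ttr-57*, one of the genes without a value here, with 89 residues. Most have few exons, with 13 of the 58 having 2 exons and 27 having 3, and *ttr-14* having the most with 9. Across members, level per length had only weak correlations with the number of residues (Spearman's rho = -0.23 across 51 genes) and of exons (rho = -0.20 across 52 genes). These are descriptions across genes, which share their libraries, and the scale itself is divided by the exon length.

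For 15 of the 52 members, some exon bases are shared with another protein-coding gene, on the opposite strand in 13. The shared part was largest for the pseudogene *ttr-4*. It was 40.7% of the exon bases for *ttr-16*, which overlaps *lin-3*, the gene of an epidermal growth factor-like signal, and 25% for *ttr-44*. Among the other 12 it lay between 2.15% and 13.01%. The level of *lin-3* was 1.62 log2 CPM per kb, far below the 10.12 of *ttr-16*. The gene *ttr-39* is the reverse case, at 2.42 beside 5.62 for its antisense partner *ndc-80*, a kinetochore gene, with 10.4% of its exon bases shared. Whether the counting used strand is unknown, so some reads counted for *ttr-39* may come from *ndc-80*.

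In the clearance of dying cells, the pathway in which TTR-52 acts, all 10 genes listed had a value, with a median of 2.67 log2 CPM per kb. Of these, 5 lay above the median of all genes and 2 above the upper quartile. The receptor gene *ced-1* lay at 2.22 and its adaptor gene *ced-6* at 3.65, while the ABC transporter gene *ced-7* was lowest at -1.20. The gene *nrf-5*, whose secreted lipid-binding protein works with TTR-52, lay at 3.77, and *psr-1*, the gene of a phosphatidylserine receptor, at 5.45. The gene *tat-1*, which encodes an aminophospholipid translocase, lay at -0.18. Among the genes of the engulfment signalling branch, the adaptor gene *ced-2* was highest at 6.17, the Rac GTPase gene *ced-10* lay at 3.12, *ced-12* at 2.19 and *ced-5* at -0.05.

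Other families named for secreted or cuticle proteins were set beside the *ttr* genes. The median level per length was 5.76 for 9 lysozyme genes (*lys-*), 4.19 for 113 collagen genes (*col-*) and 4.09 for 7 *grd-* genes of the hedgehog-like group, on either side of the 4.65 of the *ttr* genes. It was 1.12 for 90 C-type lectin genes (*clec-*), 1.16 for 11 *grl-* genes and 0.87 for 4 *wrt-* genes, also of the hedgehog-like group. Of the *ttr* genes, 50% lay above the upper quartile of all genes, compared with 55.6% of *lys-*, 46.0% of *col-* and 42.9% of *grd-* genes. Lower shares were found for *clec-* (13.3%), *grl-* (9.1%) and *wrt-* genes (0%). These medians and shares are given per length only. The share of annotated genes that had a value was 88.1% for *ttr* genes, 90% for *lys-*, 72.4% for *col-* and 43.8% for *grd-*. It was 40% for *wrt-*, 37.5% for *clec-* and 35.5% for *grl-*. The share over all annotated genes is not given here, so these shares cannot be set against it. Collagen genes reached higher levels, up to 13.55, and held 10.1% of the summed CPM of all genes, against 0.598% for the *ttr* genes. These differences were not tested.

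**Figure D3:**
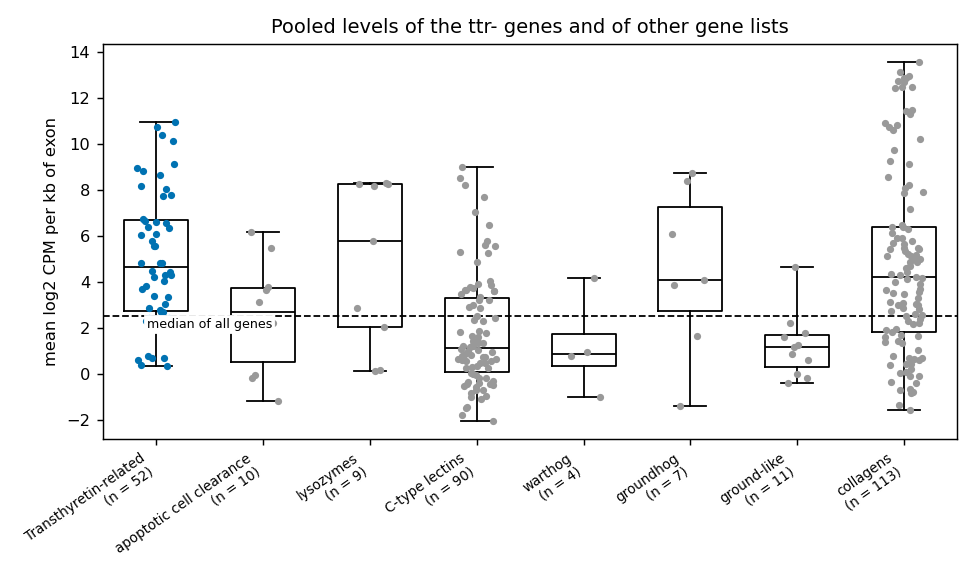
Mean log2 CPM per kb of exon (y axis) of the genes in each list (x axis, with the number of genes that have a value). Each point is the authors' mean for 1 gene over the libraries, boxes give the quartiles and median, whiskers reach the lowest and highest gene and the dashed line is the median of all genes (2.49). The *ttr* genes (blue) have a median of 4.65 and no gene below 0.33, whereas all the other lists except *lys-*, whose lowest gene lies at 0.11, hold genes below 0. This floor depends on the scale, which raises short genes: before division by length, 6 *ttr* genes have a mean log2 CPM below 0. The median protein length is 143 residues for *ttr* genes, 156 for *grd-* and between 211 and 644.5 for the other lists.

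The tissue label, whole body, was checked against 29 marker genes of 9 cell types. Of these, 24 had a value, at least 1 for each cell type. No value was found for *pha-4*, *spe-9*, *ptr-10*, *mir-228* and *unc-122*. Markers of the germ line and oocytes lay between 6.19 and 6.83 log2 CPM per kb and those of the intestine between 1.14 and 9.01. The ranges were 3.27 to 6.70 for sperm, 0.15 to 7.31 for neurons, 1.40 to 4.82 for body wall muscle and 0.59 to 2.68 for hypodermis. Those of the pharynx were low, at -0.78 and -0.71, and *cup-4*, listed for engulfing cells and coelomocytes together, lay at 1.40. Cells that engulf dying cells were thus not checked apart from coelomocytes. For glia only *fig-1* had a value, at -3.28. In whole worms, more cells that express a gene and more RNA per cell cannot be told apart.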

How the data were processed

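RNA was taken from whole day 1 adults, with 12 libraries in 4 groups of 3. Reads, paired-end, were mapped to ce11 by the authors with HISAT2 (2.0.5), who then ran StringTie (1.3.3) and Ballgown, and used limma (3.24.15) and edgeR (3.10.5). Genes with a CPM under 1 were excluded by the authors. The deposited tables, one for each of 3 comparisons, hold a mean log2 expression per gene (log2 CPM by voom), which was used here. They also hold the authors' own comparisons (log fold changes, moderated t, p-values, adjusted p and log odds), which were not used. Group differences were thus not assessed and no test was run. The tables list nothing for single libraries, so depth and precision are unknown. No protein or genome sequences were used.

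The members are the genes whose name starts with *ttr-*. The members and lists were chosen with earlier results of these data known. Levels were divided by the exon length of the longest transcript (Ensembl release 115, WBcel235), which 12712 of 12749 genes have. Values are from the table of temperature in wild type. Genes named are the 10 highest and 5 lowest members, those with a known role, the neighbourhood with most genes, and others chosen after their values were seen. Alternatives were coding length, no length, a mean log2 CPM of at least 1, protein-coding genes, the other tables and neighbour distances of 5 and 50 kb. Scripts were tested on simulated data. Python 3.11.15, numpy 2.4.6, pandas 2.3.3 and matplotlib 3.10.9 were used.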

Additional observations from a re-analysis of the deposited data

How the results depend on the processing

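The 52 members were found in each of the 3 tables, and the median of the members stayed above that of all genes in every alternative run. By coding length the medians were 5.001 and 2.88 (difference 2.12), and without length 4.07 and 2.85 (difference 1.22). Among genes with a mean log2 CPM of at least 1 they were 5.19 and 3.51 (difference 1.68), among protein-coding genes 4.82 and 2.50 (difference 2.31), and in the table of genotype at 15 °C, which holds 12443 genes, the median of all genes was 2.59 (difference 2.06). Without the pseudogene *ttr-4*, an alternative chosen after seeing the data, the median of the members was 4.82 (difference 2.32). Between 23 and 27 members lay above the upper quartile of all genes, but not all counts were of 52 members. The count was 27 of 51 by coding length and 23 of 52 without length. It was also 23 at a mean log2 CPM of at least 1, which leaves out the lowest members. Members with a neighbour numbered 29 within 5 kb, 31 within 50 kb and 24 when genes without a value were left out, which was also chosen after seeing the data. The 10 most abundant members were the same 10 by coding length and without length, and 4 of the 5 lowest were. Coding length raised single members by 0.12 to 1.08, and all 104 values of members in the other 2 tables moved by less than 0.005. The identity of proteins, leaving out a repeat and DESeq2 were not run, since these need sequences or values per library. No paired analysis was possible because the tables hold no value per library. Without an error for any mean, small differences in level cannot be read.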
